A study of Mus musculus with 10 samples.

Results

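The cytosolic ribosome of mammals is built from a large and a small subunit, and the genes described here are those that encode its proteins. They were taken by name: every row of the deposited table whose gene name begins with Rpl or Rps and a number, together with the P stalk genes Rplp0, Rplp1 and Rplp2 and the laminin receptor gene Rpsa, but without the kinase genes whose names begin with Rps6k. This gave 112 of the 22740 rows. Of these, 46 rows encode large subunit proteins and 31 encode small subunit proteins, which makes 77 subunit genes. A further 8 rows are classed here as diverged coding copies and 26 as pseudogene-like copies of a parent gene. The remaining 1, Rps19bp1, is named for a protein that binds a ribosomal protein and is not itself one.

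Gene expression was measured by poly(A) RNA sequencing in the oesophagus of 10 C57BL/6 mice, all of them exposed to the carcinogen 4-NQO (4-nitroquinoline 1-oxide), which forms DNA adducts and brings on squamous tumours. By label, 5 mice are Grhl3 knockouts, with tissue called oesophageal tumour, and 5 are wild type, with tissue called oesophageal only, while the design text of the series speaks of tumours from both. Genotype and tissue label therefore cannot be told apart. Grhl3 encodes a transcription factor of the grainyhead-like family that acts in surface epithelia. The series title calls the knockout conditional, and the count columns of these mice carry the word L2Cre; neither the cells in which a Cre acted nor the age of the mice is given in these sources.

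Ribosomal proteins are made in large amounts in every growing cell, and their mRNAs are among the most abundant of a tissue. Most of these mRNAs begin with a short run of pyrimidines, the 5′ terminal oligopyrimidine (TOP) motif, through which mTOR and the RNA-binding protein LARP1 control how much of them is translated. Some ribosomal proteins also act outside the ribosome: RPL5 and RPL11, when in excess over finished ribosomes, bind MDM2 and stabilise p53. Ribosome production is tied to cell division, which in a squamous epithelium such as that of the oesophagus takes place in the basal layers.

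Libraries held 15.3 to 32.9 M counts. Levels are given as CPM, counts per M (mega) of library size after scaling by trimmed mean of M-values (TMM) factors, and values per library are always listed in the order 1026, 1027, 1035, 1036 and 1043 for the libraries labelled Grhl3 KO and 1028, 1048, 1528, 1555 and 1561 for the wild-type libraries. Grhl3 itself stood at 135, 234, 191, 235 and 317 CPM in the Grhl3 KO-labelled libraries, against 363, 114, 164, 283 and 109 CPM in the wild-type libraries. The targeted gene thus showed no drop with the knockout label, and counts summed over a whole gene cannot show the loss of single exons, so every direction below is between labels. Counts of 4 Y-linked genes summed to 162 to 203 CPM in the Grhl3 KO-labelled libraries, against 154, 177, 0.0527, 0.0539 and 72.3 CPM in the wild-type libraries, so that the mix of libraries with and without Y-linked counts differs between the groups. The squamous epithelium markers were present throughout, and their summed level was 48116 to 63656 CPM in the Grhl3 KO-labelled and 42199 to 103835 CPM in the wild-type libraries. Summed over 22 skeletal muscle markers, the level was 1511 to 8430 CPM in the Grhl3 KO-labelled and 2356 to 4682 CPM in the wild-type libraries; 22 of 22 had a positive fold change, none of them past an adjusted p of 0.05. The 7 smooth muscle markers summed to 263 to 722 CPM and 247 to 666 CPM in the same order of groups, the 7 fibroblast markers to 289.7 to 754 CPM and 326 to 557 CPM, and the 5 endothelium markers to 61.5 to 97.1 CPM and 43.0 to 119 CPM. Lower fold changes numbered 6 of 7 for smooth muscle, with a median of −0.60 on the log2 scale, 7 of 10 for squamous epithelium, 2 of 7 for fibroblasts and 1 of 5 for endothelium, none past an adjusted p of 0.05. The 9 leukocyte markers matched by name, of 10 listed, summed to 7619 to 11224 CPM and 3155 to 23389 CPM in the same order of groups, of which S100a8 and S100a9, genes also active in squamous epithelium, made up 97.9% to 99.6%; the other 7 summed to 55.4 to 80.5 CPM and 55.2 to 101 CPM. Of the 7 leukocyte markers that could be tested, 5 were lower, none past an adjusted p of 0.05. No marker matched was at 0 in every library. The part of tissue makeup, sex or library in the values below was not tested unless a value for it is given.

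The 112 rows together took 2.80%, 2.74%, 2.62%, 2.55% and 2.54% of all counts in the Grhl3 KO-labelled libraries, against 2.90%, 2.43%, 2.53%, 2.96% and 3.05% in the wild-type libraries. The mean was 2.65 ± 0.116% in Grhl3 KO-labelled and 2.77 ± 0.276% in wild-type libraries (SD, n = 5 each), so the wild-type range enclosed that of the other group. The large subunit genes accounted for 1.38 ± 0.0612% and 1.45 ± 0.147% of counts in the same order of groups, and the small subunit genes for 1.09 ± 0.0521% and 1.14 ± 0.116%. These are shares of the counts in the protein-coding rows. How reads matching several genes were treated is not stated, so the share of these genes in the mRNA may differ. In bulk tissue, a change in the number of ribosome-rich cells and a change in mRNA per cell cannot be told apart.

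The subunit genes moved together within libraries, and most of that movement was among wild-type mice. Relative to its own mean over the 10 libraries on the log2 CPM scale, the median subunit gene deviated by 0.00, 0.05, −0.09, −0.06 and −0.03 in the Grhl3 KO-labelled libraries and by 0.19, −0.23, −0.08, 0.19 and 0.10 in the wild-type libraries. Wild-type library 1028 held the highest value of 27 of the 77 subunit genes, and wild-type library 1555 that of 19. These same libraries stood apart in S100a8 and S100a9, which summed to 23288 CPM in 1028 and 21893 CPM in 1555. Any other library held at most 11143 CPM. Their mean squamous marker level was the highest of the 10, at 11.50 and 11.44 on the log2 CPM scale. By summed squamous CPM, library 1555 stood at 63235, below Grhl3 KO-labelled library 1043 at 63656. Wild-type library 1561, with the highest value of 12 of the 77, had the lowest S100a8 and S100a9 sum, 3100 CPM. The mean squamous marker level of library 1561, 10.72, was also the lowest of the 10. The part of these differences in the subunit gene values was not tested. Wild-type library 1048 held the lowest value of 45 of the 77. The medians of the Grhl3 KO-labelled libraries lay between those of wild-type libraries 1048 and 1028. Of single genes, Grhl3 KO-labelled library 1036 held the lowest value of 14 of the 77 and the highest of 3. Across all 10 libraries the subunit genes had a median SD of 0.20 on the log2 CPM scale, against 0.26 for the 13731 genes tested. These 13731 genes were not matched to the subunit genes by level, and the SD on this scale also depends on level.

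**Figure D1:**
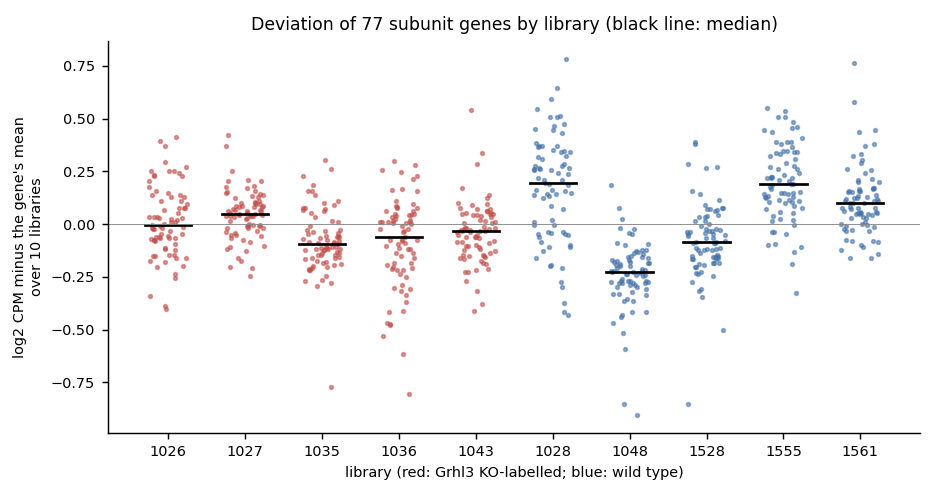
Deviation of each of the 77 subunit genes from its own mean over the 10 libraries (y axis, log2 CPM), by library (x axis; Grhl3 KO-labelled in red, wild type in blue), with the median of the 77 as a black line. The medians of the 5 wild-type libraries run from −0.23 in library 1048 to 0.19 in library 1028, and those of the 5 Grhl3 KO-labelled libraries from −0.09 to 0.05.

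Set between the labels, 99 of the 112 rows could be tested, among them all 77 subunit genes, and none differed past the threshold in the main test. edgeR's quasi-likelihood test, adjusted over all 13731 genes tested, called 0 of the 99 at an adjusted p under 0.05; over all genes it called 11, which is 0.0801%. Of the 99, 36 had a higher and 63 a lower mean in the Grhl3 KO-labelled libraries. This made 63.6% lower, beside 50.3% of all genes tested. The median log2 fold change of the 99 was −0.05, against −0.00 over all genes tested. DESeq2 called 3 of the 99, namely Rpl37 and Rplp2 as lower and Rps18-ps3 as higher, in a table in which it called 118 genes; limma voom called 0 of the 99 and 1 gene in all. At an unadjusted p under 0.05, edgeR gave 11 members as lower, which is 11.1% of those tested beside 3.72% of all genes, and 5 as higher, which is 5.05% beside 3.44% of all genes. These counts rested on single libraries. The count of lower members at an unadjusted p under 0.05 became 7 without Grhl3 KO-labelled library 1026, 6 without 1036, 5 without wild-type library 1028, 17 without 1048 and 7 without 1555, and that of higher members 3 without 1026, 3 without 1028 and 8 without 1561. The sample numbers form 2 series, of which the 15xx series, with an unstated meaning, holds wild-type libraries only (1528, 1555 and 1561) and gives no value of its own. Within the 10xx numbers, which hold 5 Grhl3 KO-labelled and 2 wild-type libraries, 46 of 101 members were lower, 4 lower and 8 higher ones had an unadjusted p under 0.05, and the median turned to 0.03; of the 77 subunit genes 41 were lower there, with a median of −0.01.

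Lower genes outnumbered higher ones in both subunits, at 67.4% of the large and 71.0% of the small subunit genes. Over all genes tested the share was 50.3%. The subunit genes moved together within libraries, so these are not counts of independent genes. Of the 46 large subunit genes, 31 were lower and 15 higher in the Grhl3 KO-labelled libraries, with a median log2 fold change of −0.06. An unadjusted p under 0.05 was found for 9 of the lower and 2 of the higher, or 19.6% and 4.35% of the 46. Of the 31 small subunit genes, 22 were lower and 9 higher, with a median of −0.05. In this subunit 2 of the lower had an unadjusted p under 0.05, or 6.45% of the 31. Over all genes tested, 3.72% were lower and 3.44% higher at that p. Among the 15 pseudogene-like copies tested, 9 were higher and 6 lower, with a median of 0.08. Of these 15, 3 were higher at an unadjusted p under 0.05, or 20% beside 3.44% of all genes. The 6 diverged coding copies tested split into 3 and 3. Whether the subunits differ from each other was not tested. The log2 fold changes of the subunit genes ran from −0.78 for Rpl37 to 0.40 for Rps29, so that no point estimate of a subunit gene reached 2-fold.

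**Figure D2:**
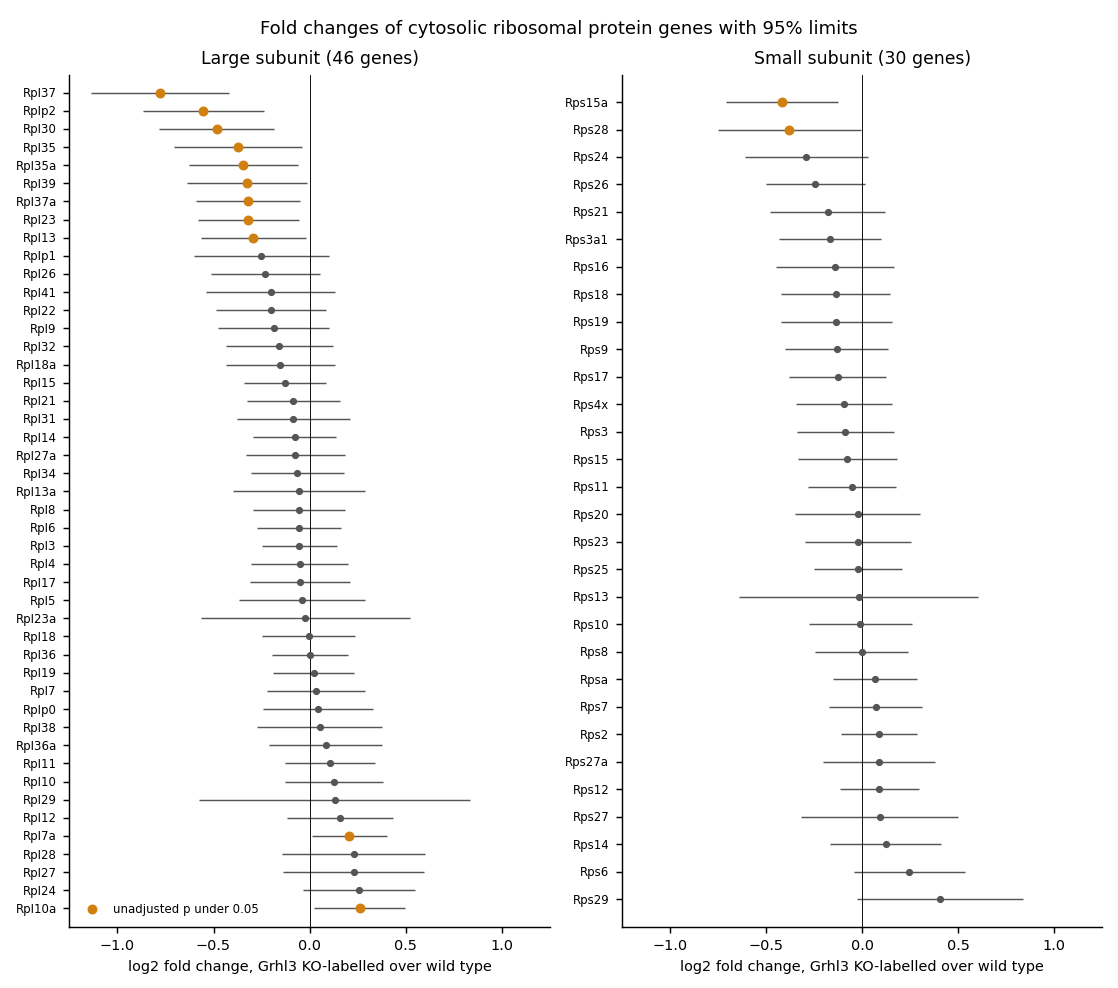
Log2 fold change, Grhl3 KO-labelled over wild type, of the 46 large and 30 of the 31 small subunit genes (points) with 95% limits (lines); orange points have an unadjusted p under 0.05 and none passed after adjustment. Rpl37 lies furthest to the lower side at −0.78 and Rps29 furthest to the higher side at 0.40.

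Rpl37, which encodes a zinc-binding protein of the large subunit, had the smallest p of all members and lies at chr15:5116645-5119140 on GRCm38. It stood at 17.9, 20.3, 20.5, 13.4 and 18.8 CPM in the Grhl3 KO-labelled libraries, against 40.5, 23.2, 28.3, 34.4 and 29.6 CPM in the wild-type libraries. Every Grhl3 KO-labelled library lay below every wild-type library, and the mean was 18.2 ± 2.89 CPM against 31.2 ± 6.57 CPM (SD, n = 5 each). Behind these levels stood 285 to 859 counts per library. The log2 fold change was -0.78 (95% limits -1.14 to -0.42). After adjustment p was 0.194 by edgeR and 0.00345 by DESeq2. Leaving out any 1 library gave values from −0.87 to −0.67, and within the 10xx numbers the value was -0.81. Of the Rpl37 transcript, 41.3% is near-identical to another gene.

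Rpl30 was the other member whose groups did not overlap, which held for 2 of the 99 members and for 1.35% of all genes tested. Its protein, L30, is known in yeast to bind and repress its own transcript. Rpl30 stood at 36.9, 38.95, 42.4, 28.4 and 38.99 CPM in the Grhl3 KO-labelled libraries, against 63.4, 42.8, 44.8, 56.9 and 51.9 CPM in the wild-type libraries. The gap between the groups was narrow, with 42.4 CPM in the highest Grhl3 KO-labelled and 42.8 CPM in the lowest wild-type library, and library 1028 was the highest of all. This amounted to a log2 fold change of -0.48 with an SE of 0.14 (adjusted p = 0.426 by edgeR). Its transcript is 90.97% near-identical to copies elsewhere in the genome, so its counts are uncertain.

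The P stalk, a flexible arm of the large subunit that recruits the translation factors with GTPase activity, is formed by the proteins of Rplp0, Rplp1 and Rplp2. Rplp2 stood at 154, 188, 193, 147 and 169 CPM in the Grhl3 KO-labelled libraries, against 307, 181, 246, 285 and 229 CPM in the wild-type libraries. Wild-type library 1048, at 180.5 CPM, fell within the range of the Grhl3 KO-labelled libraries and the other 4 wild-type libraries lay above it. The log2 fold change of Rplp2 was -0.55 (SE 0.14), and the adjusted p was 0.370 by edgeR and 0.0394 by DESeq2. Its partners differed less: the log2 fold change was -0.25 (SE 0.16, edgeR adjusted p = 0.799) for Rplp1 and 0.05 (SE 0.13, edgeR adjusted p = 0.977) for Rplp0. Rplp1 ranged from 1051 to 1235 CPM in the Grhl3 KO-labelled libraries and from 1061 to 1778 CPM in the wild-type libraries. Rplp0 averaged 2310.3 ± 219 CPM in Grhl3 KO-labelled and 2239 ± 340.4 CPM in wild-type libraries (SD, n = 5 each). The difference between the 3 stalk genes was not itself tested.

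Rps15a was the small subunit gene of smallest p. It stood at 247, 274, 273, 204 and 243 CPM in the Grhl3 KO-labelled libraries, against 388, 260.2, 296, 391 and 320.3 CPM in the wild-type libraries, and the groups overlapped through wild-type library 1048. Its log2 fold change was -0.42 (SE 0.13, edgeR adjusted p = 0.478). Only 8.86% of its transcript is near-identical to other genes, the annotated principal transcript being 5179 bases long. Rps28, the other small subunit gene in this direction at an unadjusted p under 0.05, stood at 50.1, 51.4, 47.9, 38.4 and 59.5 CPM in the Grhl3 KO-labelled libraries, against 86.9, 46.02, 58.5, 72.8 and 57.6 CPM in the wild-type libraries.

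**Figure D3:**
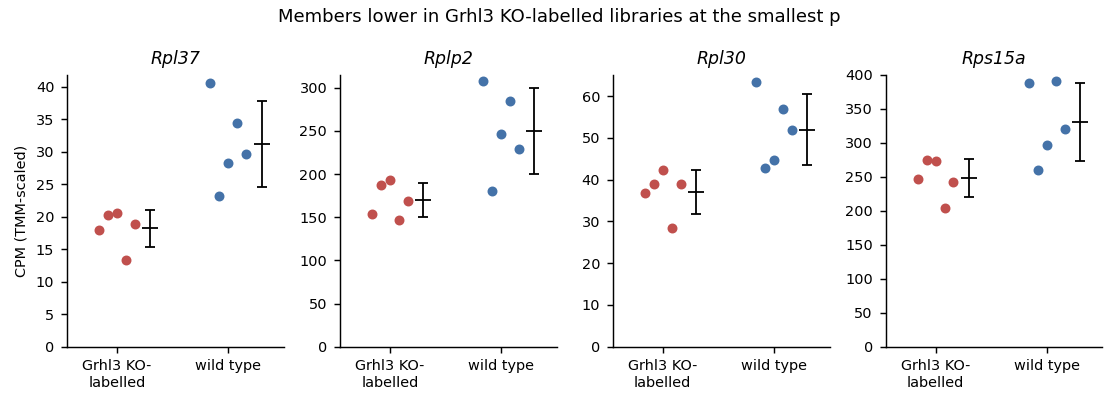
CPM of Rpl37, Rplp2, Rpl30 and Rps15a in each library (points; Grhl3 KO-labelled in red, wild type in blue), with the mean and SD of each group in black (n = 5 each). The groups do not overlap for Rpl37 and Rpl30, and 1 wild-type library reaches into the lower range for Rplp2 and Rps15a.

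The remaining lower members at an unadjusted p under 0.05 were all of the large subunit. Rpl23, whose protein also binds MDM2, averaged 90.1 ± 7.27 CPM in Grhl3 KO-labelled and 112 ± 19.6 CPM in wild-type libraries (SD, n = 5 each), a log2 fold change of -0.32. Rpl35a, 1 of the genes mutated in human Diamond-Blackfan anaemia, averaged 24.5 ± 2.03 CPM and 31.1 ± 5.86 CPM in the same order of groups, a log2 fold change of -0.34. Rpl39, whose protein lines the tunnel through which the nascent chain leaves the ribosome, stood at a log2 fold change of -0.33, and Rpl35, whose protein sits at the mouth of that tunnel, one of -0.37. The zinc-binding Rpl37a had -0.32 and Rpl13 -0.29. In each of these 6 genes the highest value of all belonged to wild-type library 1028 or 1555, and wild-type library 1048 lay within the Grhl3 KO-labelled range. Their edgeR adjusted p ran from 0.5998 to 0.688.

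Sequences around the transcription starts of 4 lower members are shown because the pyrimidine run at the start is the feature that most ribosomal protein mRNAs have in common. They are from RefSeq on GRCm38.p6, from 40 bases before to 30 bases from the start on, on the strand of the gene, and capitals mark the longest run of C and T that reaches into the bases from 10 before to 20 after the start. The windows are chr7:141447611-141447680 on the plus strand for Rplp2, chr7:118116118-118116187 on the minus strand for Rps15a, chr2:39005102-39005171 on the minus strand for Rpl35 and chr15:5116573-5116642 on the plus strand for Rpl37.
Rplp2: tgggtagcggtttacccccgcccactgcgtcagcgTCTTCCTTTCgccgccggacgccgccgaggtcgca
Rps15a: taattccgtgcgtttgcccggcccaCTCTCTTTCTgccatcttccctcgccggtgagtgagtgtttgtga
Rpl35: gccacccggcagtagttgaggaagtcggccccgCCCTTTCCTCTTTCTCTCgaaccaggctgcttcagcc
Rpl37: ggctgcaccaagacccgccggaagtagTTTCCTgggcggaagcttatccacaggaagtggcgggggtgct

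The run measured 10 bases in Rplp2, 10 in Rps15a and 18 in Rpl35, and 6 in Rpl37. Relative to the RefSeq start, the runs of Rps15a and Rpl37 began at bases −15 and −13 and ended before the start. Those of Rplp2 and Rpl35 spanned it. A run found in this way thus need not hold the start itself. For Rpl37 the printed window ends at base 5116642 of chromosome 15, before the gene start of 5116645 given above. The RefSeq start of Rpl37 thus lies outside the gene as placed there. Its run of 6 therefore cannot show whether a longer run stands at that gene start. A run of at least 8 was found for 29 of the 57 subunit genes that the promoter table held, or 50.9%, against 19.2% of the 27025 genes of the table. Exact letters were also searched, on both strands of a window from 250 bases before to 50 after the start. CTTTCC was present in 50.9% of subunit genes and 29.3% of all genes, CTCTTTC in 31.6% and 9.28%, CCGGAAG in 42.1% and 9.93%, and AAGATGGC in 8.77% and 3.19%. CACGTG was present in 10.5% and 8.09%, and TATAAA in 10.5% and 15.7%. CTTTCC and CTCTTTC can share bases. In the full windows of the 4 genes printed above, CCGGAAG was found for Rplp2, Rpl35 and Rpl37, CTCTTTC for Rps15a and Rpl35, CTTTCC for Rpl35 and AAGATGGC for Rps15a. These are matches of letters, with no measurement of start sites or binding behind them.

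Fewer members were higher. Rpl10a, whose protein forms the L1 stalk that guides spent tRNA out of the ribosome, stood at 69.3, 53.8, 62.4, 52.9 and 48.5 CPM in the Grhl3 KO-labelled libraries, against 42.3, 45.4, 51.3, 50.8 and 49.4 CPM in the wild-type libraries. The groups overlapped, with Grhl3 KO-labelled library 1043 inside the wild-type range, and the log2 fold change was 0.26 (SE 0.11, edgeR adjusted p = 0.661). Rpl7a averaged 121 ± 8.21 CPM in Grhl3 KO-labelled and 105 ± 10.4 CPM in wild-type libraries (SD, n = 5 each), a log2 fold change of 0.21 with an edgeR adjusted p of 0.675. Rps29, which encodes a zinc-binding protein of the small subunit, had the highest fold change of the subunit genes, 0.40 on the log2 scale, at only 5.23 ± 0.769 CPM in Grhl3 KO-labelled and 3.94 ± 0.834 CPM in wild-type libraries, and an edgeR adjusted p of 0.724.

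The 3 higher members of smallest p were copies rather than subunit genes. Rps18-ps3, an intronless copy of the small subunit gene Rps18 that the annotation calls a processed pseudogene, stood at 22.3, 20.4, 13.5, 22.7 and 18.4 CPM in the Grhl3 KO-labelled libraries, against 14.4, 11.7, 13.1, 12.9 and 13.04 CPM in the wild-type libraries. In the Grhl3 KO-labelled group 4 of the 5 libraries lay above every wild-type library, and library 1035 lay within the wild-type range. On the log2 scale the fold change was 0.58 (SE 0.14), and the adjusted p was 0.313 by edgeR and 0.0479 by DESeq2. For its parent Rps18 the value was -0.14, and the copy took 7.01 ± 1.53% of the counts of the pair in Grhl3 KO-labelled and 4.44 ± 0.564% in wild-type libraries (SD, n = 5 each). When the counts of copy and parent were summed, which was chosen after seeing the data, the log2 fold change was −0.10.

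Rps12-ps3, annotated as protein coding but named as a pseudogene of Rps12, averaged 55.6 ± 7.42 CPM in Grhl3 KO-labelled and 42.4 ± 5.67 CPM in wild-type libraries (SD, n = 5 each), a log2 fold change of 0.39 (SE 0.12, edgeR adjusted p = 0.439). It took more counts than Rps12 itself, 71.9 ± 3.03% of the pair in Grhl3 KO-labelled and 67.6 ± 2.52% in wild-type libraries.

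Rpl10a-ps2, a processed pseudogene of Rpl10a, had the largest fold change of all members. It stood at 15.4, 11.6, 17.4, 5.44 and 20.6 CPM in the Grhl3 KO-labelled libraries, against 7.92, 0.263, 1.69, 0.0539 and 0.424 CPM in the wild-type libraries. Every Grhl3 KO-labelled library held it above 5 CPM, while 4 of the 5 wild-type libraries were under 2 CPM and library 1028 overlapped the other group. On the log2 scale the difference was 2.75 with wide limits, 0.72 to 4.78 (edgeR adjusted p = 0.504). It was 4.51 without library 1028 and 1.77 within the 10xx numbers. As a share of the pair with Rpl10a, the copy took 19.4 ± 7.41% of counts in Grhl3 KO-labelled and 4.10 ± 6.63% in wild-type libraries. Summed with Rpl10a, the pair averaged 71.5 ± 10.7 CPM and 49.9 ± 2.64 CPM in the same order of groups, which by edgeR is a log2 fold change of 0.52 (adjusted p = 0.167).

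The sequences of parent and copy show how far reads can tell them apart. The coding sequence of each parent and the annotated transcript of its copy on GRCm38 were aligned locally, with gaps allowed. Only the longest stretch without a gap was then compared. Rps18 (chr17:33951999-33956001, minus strand) and Rps18-ps3 (chr8:107262793-107263248, minus strand) differ at 3 of 456 coding bases, an identity of 99.3%, and a read that covers none of these bases matches both equally. Rpl10a (chr17:28328471-28331033, plus strand) and Rpl10a-ps2 (chr13:8940336-8940977, minus strand) differ at 20 of the 449 bases of their longest stretch without a gap, an identity of 95.5%. This stretch is part of the 636 bases of the pair that aligned. The windows of 60 bases below are those that hold the most differences within the stretch compared in each pair. Capitals mark the bases that differ between the members of a pair.
Rps18: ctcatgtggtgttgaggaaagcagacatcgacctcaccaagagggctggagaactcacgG
Rps18-ps3: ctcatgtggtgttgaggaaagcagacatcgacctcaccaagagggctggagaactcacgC
Rpl10a: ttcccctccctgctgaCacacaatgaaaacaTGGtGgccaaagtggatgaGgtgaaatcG
Rpl10a-ps2: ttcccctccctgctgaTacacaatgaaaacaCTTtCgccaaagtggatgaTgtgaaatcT

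The windows begin at base 122 of the Rps18 coding sequence and at base 397 of that of Rpl10a. The first pair shows a single difference in 60 bases, the other 7.

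**Figure D4:**
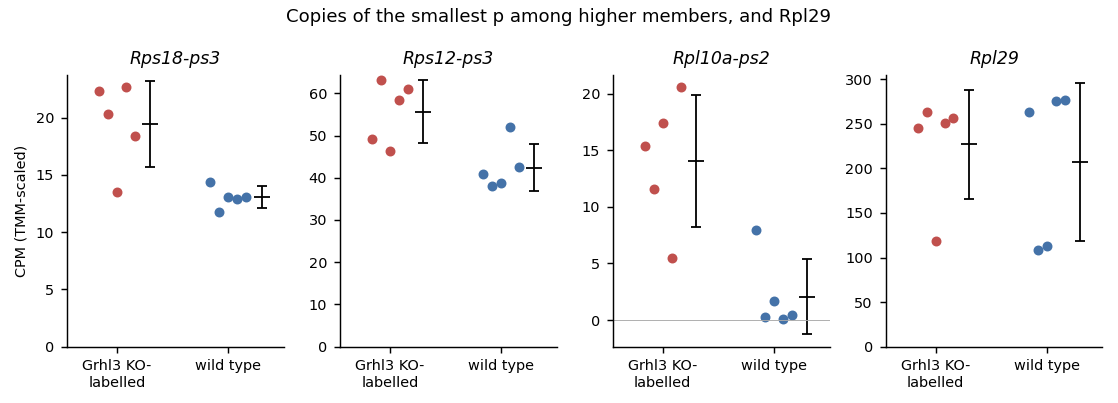
CPM of Rps18-ps3, Rps12-ps3, Rpl10a-ps2 and Rpl29 in each library (points; Grhl3 KO-labelled in red, wild type in blue), with the mean and SD of each group in black (n = 5 each). Rpl10a-ps2 is under 2 CPM in 4 of 5 wild-type libraries, and Rpl29 lies at 109 to 119 CPM in 3 libraries drawn from both groups.

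Rpl29, which encodes a basic protein of the large subunit also found at the cell surface as a heparin-binding protein, varied most of the 77 subunit genes, with an SD of 0.59 on the log2 CPM scale; it was chosen after its values were seen. It stood at 245, 263, 119, 251 and 257 CPM in the Grhl3 KO-labelled libraries, against 263, 109, 113, 276 and 277 CPM in the wild-type libraries. The values fell on 2 levels, 109 to 119 CPM in Grhl3 KO-labelled library 1035 and wild-type libraries 1048 and 1528, and 245 to 277 CPM in the other 7. Between the labels the log2 fold change was 0.13 (SE 0.32, edgeR adjusted p = 0.969). Its transcript is 88.5% near-identical to 29 other genes, 27 of them pseudogenes.

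Levels between genes were compared per length, as CPM per kb of the principal annotated transcript averaged over the 10 libraries. Most of these proteins are present in equal number in a ribosome, while the counted levels of the 77 subunit genes ran from 5.77 CPM per kb for Rpl24 to 2544 CPM per kb for Rplp1, with a median of 106. Among the highest after Rplp1 were Rpl8 at 1717, Rplp0 at 1675 and Rpl4 at 1516 CPM per kb. At the low end, 25 of the 77 were under 50 CPM per kb, among them Rpl23a at 5.87, Rps27 at 8.91 and Rps29 at 11.8. The length matters to this order: with exons joined over all annotated transcripts, chosen after seeing the data, the median became 50.2, and for Rpl24 the principal transcript is 4920 bases long. Grouped by the share of the transcript that is near-identical to another gene (at least 95% identity over at least 75 bases), the median level was 65.3 CPM per kb for the 28 genes at 80% or more, 199 for the 28 genes from 50% to 80% and 95.6 for the 21 genes under 50%. Lower genes made up 17 of 28, 19 of 28 and 17 of 21 in these 3 groups, or 60.7%, 67.9% and 81.0%. Of them, 3, 3 and 5 had an unadjusted p under 0.05, or 10.7%, 10.7% and 23.8% of each group. Over all genes tested, 50.3% were lower, and 3.72% were lower at that p.

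**Figure D5:**
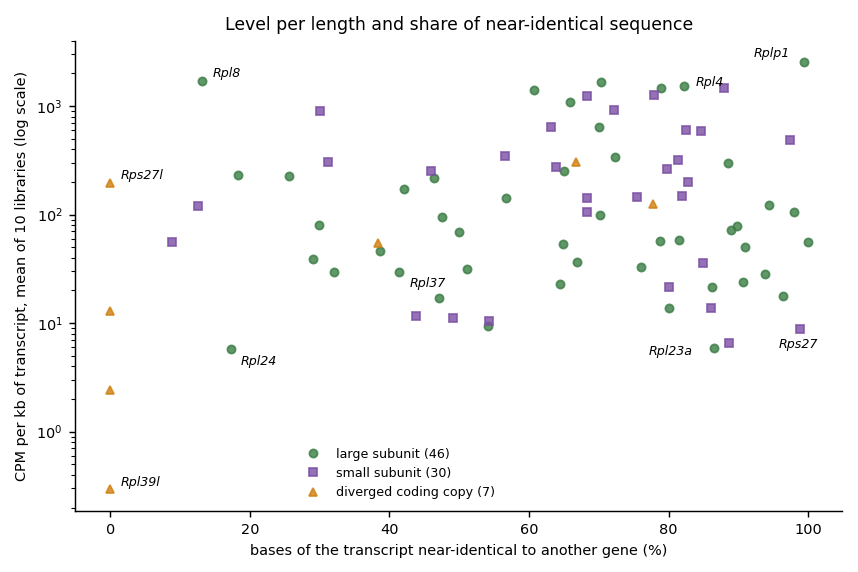
Mean CPM per kb of transcript over 10 libraries (y axis, log scale) against the percentage of the transcript near-identical to another gene (x axis) for 46 large subunit genes, 30 of the 31 small subunit genes and diverged coding copies; Rpl10l, with no counts, is not drawn. Rps27, at 98.8% near-identical, lies at 8.91 CPM per kb and its diverged copy Rps27l, at 0%, at 197.

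For several genes the counts sat mainly on the copy. Rps26-ps1 took 63.4 ± 0.318% of the counts of the pair with Rps26 in Grhl3 KO-labelled and 60.7 ± 0.880% in wild-type libraries (SD, n = 5 each). The ranges, 63.0% to 63.7% and 59.7% to 61.7%, did not overlap. Of the pairs of copy and parent compared, this was the only one with ranges apart. It was chosen after its values were seen, and no such share was computed over all genes. Rpl9-ps6 took 92.0 ± 0.716% of the pair with Rpl9 in Grhl3 KO-labelled and 91.4 ± 1.82% in wild-type libraries. Rpl23a-ps3 took 97.0 ± 0.361% and 97.4 ± 1.15% of the pair with Rpl23a in the same order of groups, and Rps10-ps1 50.8 ± 1.66% and 51.1 ± 0.867% of the pair with Rps10. Parent rows such as Rpl9 and Rpl23a thus held a small part of the counts of their family, and their fold changes are uncertain. Of the 26 pseudogene-like rows, 11 had too few counts to be tested: Rpl28-ps4 and Rpl36-ps4 had 0 counts in all libraries, Rpl23a-ps1 had 1 count, and Rpl13-ps3, Rpl21-ps4, Rpl21-ps6, Rpl27-ps3, Rpl36-ps3, Rpl7a-ps3, Rpl7a-ps8 and Rpl9-ps1 had 6 to 116 counts over the 10 libraries.

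The rows classed as diverged coding copies are named after a ribosomal protein, and several encode alternative forms of it that are limited to certain tissues. Rps27l, a p53 target that replaces the zinc-finger protein of Rps27, differs from it at 60 of 252 coding bases, an identity of 76.2%, and has no near-identical stretch. A window of 60 bases from base 4 of the coding sequence is shown with the differing bases in capitals, for Rps27 (chr3:90212522-90213651, minus strand) and Rps27l (chr9:66946086-66949516, plus strand).
Rps27: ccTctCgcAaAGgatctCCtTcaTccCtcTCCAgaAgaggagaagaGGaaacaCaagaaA
Rps27l: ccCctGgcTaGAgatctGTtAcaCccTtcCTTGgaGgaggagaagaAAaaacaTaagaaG

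Rps27l stood at 97.9, 92.1, 101, 99.8 and 97.7 CPM in the Grhl3 KO-labelled libraries, against 106, 84.2, 107, 88.4 and 108 CPM in the wild-type libraries. The groups overlapped almost fully, and the log2 fold change was -0.02 (95% limits -0.21 to 0.18; edgeR adjusted p = 0.986). Rps27 itself was counted at 3.17 ± 0.447 CPM in Grhl3 KO-labelled and 2.97 ± 0.329 CPM in wild-type libraries (SD, n = 5 each), and 98.8% of its transcript matches other genes.

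Rpl3l, the form of Rpl3 made in skeletal and heart muscle, stood at 5.66, 1.70, 2.23, 0.670 and 7.94 CPM in the Grhl3 KO-labelled libraries, against 2.59, 2.63, 2.58, 5.60 and 1.60 CPM in the wild-type libraries. Its highest values, in Grhl3 KO-labelled libraries 1026 and 1043 and wild-type library 1555, were in the 3 libraries with the highest summed skeletal muscle level, 5624, 8430 and 4682 CPM. The log2 fold change was 0.26 (SE 0.59, edgeR adjusted p = 0.967), and it was -0.43 with the muscle list as a covariate.

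Rps4y2, a row whose identifier belongs to the autosomal Rps4l and which the annotation calls a transcribed processed pseudogene, was also uneven, at 5.09, 3.36, 16.4, 6.11 and 18.5 CPM in the Grhl3 KO-labelled libraries, against 7.59, 6.48, 3.53, 19.1 and 35.4 CPM in the wild-type libraries. Wild-type library 1561 was the highest and the groups overlapped. Rpl22l1, which Rpl22 is known to repress in mouse cells, averaged 74.6 ± 19.8 CPM in Grhl3 KO-labelled and 63.8 ± 19.5 CPM in wild-type libraries (SD, n = 5 each), a log2 fold change of 0.23 (adjusted p by edgeR = 0.907). The value for Rpl22 was -0.20, and the copy took 14.6 ± 4.07% of the pair in Grhl3 KO-labelled and 11.3 ± 3.26% in wild-type libraries, with overlapping ranges of 11.0% to 20.4% and 8.21% to 16.2%. Rpl36al held 92.8 ± 0.983% and 93.8 ± 0.525% of the pair with Rpl36a in the same order of groups, and Rpl7l1 16.2 ± 1.23% and 16.1 ± 2.64% of the pair with Rpl7. The testis forms were nearly absent: Rpl10l had 0 counts in all 10 libraries, which allows a share of up to 0.0734% of the pair with Rpl10 by counting error alone, and Rpl39l had 71 counts, 46 of them in Grhl3 KO-labelled library 1035.

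The genes of the p53 surveillance list showed no shared direction. Of the 6 in this list, 3 were higher and 3 lower, none with an unadjusted p under 0.05. Rpl23, whose protein also binds MDM2, is outside this list. It was lower at an edgeR unadjusted p under 0.05, with a log2 fold change of -0.32. Rpl5 stood at 38.8, 48.3, 33.002, 31.7 and 27.6 CPM in the Grhl3 KO-labelled libraries, against 36.2, 37.9, 33.01, 33.5 and 43.96 CPM in the wild-type libraries, a log2 fold change of -0.04 (SE 0.15). Rpl11, which lies on chromosome 4 as Grhl3 does, stood at 21.3, 21.4, 18.7, 17.9 and 18.9 CPM in the Grhl3 KO-labelled libraries, against 16.5, 16.2, 17.7, 20.9 and 19.95 CPM in the wild-type libraries, a log2 fold change of 0.11 (SE 0.11). Rpl26, whose protein binds the p53 mRNA, had -0.23, and Rps7, whose protein binds MDM2, had 0.07. Among 15 p53 target genes, 9 were higher and 6 lower in the Grhl3 KO-labelled libraries. An unadjusted p under 0.05 was found for 4, all of them higher, which is 26.7% beside 3.44% of all genes. None passed after adjustment. Eda2r, a death receptor of the TNF family, had the smallest p, with a log2 fold change of 1.14 (SE 0.23, edgeR adjusted p = 0.166).

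Other genes of translation were read from lists of single gene names, except the mitochondrial ribosomal proteins, which were taken by a name rule. Fau (a fusion that carries RPS30) and Gnb2l1 (RACK1), ribosomal protein genes with other names, had log2 fold changes of 0.06 and 0.08. Of 24 further TOP mRNAs, most of which encode elongation and initiation factors, 7 were higher and 17 lower, with a median of −0.06. This made 70.8% lower, beside 50.3% of all genes tested, and none had an unadjusted p under 0.05. The 34 ribosome biogenesis genes tested split into 17 and 17, with only Gar1, part of the pseudouridylation particles, at an unadjusted p under 0.05 (log2 fold change −0.33). The 76 mitochondrial ribosomal proteins tested split into 37 higher and 39 lower with none at that level. Among 19 control genes of initiation and elongation, 14 were higher and 5 lower, and the kinase gene Eif2ak3 (PERK) alone had an unadjusted p under 0.05, with a log2 fold change of 0.34. No gene of these lists passed an adjusted p of 0.05 in edgeR.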

How the data were processed

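The deposited table gives whole-number counts per gene, not normalized, for protein-coding rows; per the submitters' processing notes they were made with featureCounts on GRCm38, and per the labels' protocols the libraries were stranded poly(A) libraries. The aligner, annotation and treatment of reads matching several genes are not stated in these sources. Libraries were joined to labels by sample number; 0 other sample columns and 0 unnamed rows were present. Separate numbers mark separate mice.

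edgeR 4.0.16 (R 4.3.3) filtered rows (filterByExpr, minimum count 10, minimum total 15), scaled by TMM and tested Grhl3 KO-labelled against wild-type libraries by quasi-likelihood, with Benjamini-Hochberg adjustment over all 13731 genes and a threshold of 0.05. Log2 CPM carries a prior count of 2. DESeq2 1.42.0 and limma 3.58.1 (voom) were alternatives, as were other scalings and filters, each library left out, number series and muscle covariates. The fits were tested on simulated data. Near-identity came from blastn 2.17.0 on GENCODE transcripts; 111 of the 112 rows had a position there. Promoters are RefSeq's, present for 57 of the 77 subunit genes. The upper limit for a gene with 0 counts is 3 counts of the total and covers counting error only.

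The members and lists were chosen with earlier results of these data known. Named members were those of smallest p (6 per direction), those whose groups do not overlap, paralog pairs, the P stalk, the p53 surveillance list, the 4 highest and 4 lowest per length, and at most 2 per other list; Rpl29, Rps28, Rpl35, Rpl37a, Rpl13 and Rpl4, the copies set beside their parents, and Fau, outside this rule, were chosen after their values were seen. Some genes within this rule are not reported here.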

Additional observations from a re-analysis of the deposited data

Results flagged for a closer look

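In 7 of the 84 groups of 5 examined for 42 named members, a single library stood far from the other 4 by Dixon's gap test; chance alone gives about 1 in 20. Among Grhl3 KO-labelled libraries, library 1035 was low for Rpl29, at 119 CPM beside 245 to 263 CPM in the other 4. Library 1036 was low for Rpl13, at 33.8 CPM beside 41.9 to 44.2 CPM, library 1027 was high for Rpl23, at 102.9 CPM beside 85.3 to 88.5 CPM, and library 1043 was high for Rps29, at 6.57 CPM beside 4.59 to 5.003 CPM. Among wild-type libraries, library 1028 was high for Rpl10a-ps2, at 7.92 CPM beside 0.0539 to 1.69 CPM, library 1048 was low for Rpl36al, at 133.7 CPM beside 176 to 181 CPM, and library 1555 was high for Rpl3l, at 5.60 CPM beside 1.60 to 2.63 CPM.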

How the results depend on the processing

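No member passed an adjusted p of 0.05 under any scaling, filter, covariate or left-out library in edgeR or under limma voom; DESeq2 called 3, Rpl37 at −0.79, Rplp2 at −0.56 and Rps18-ps3 at 0.57. The count of lower members at an unadjusted p under 0.05, 11 in the main test, was 6 without wild-type libraries 1528 and 1555, 4 with the number series as a covariate, 4 within the 10xx numbers, and leaving out 1 library gave 5 to 17. The count of higher members, 5, was 3 on library totals only, 8 within the 10xx numbers, 3 with the muscle covariate, 2 with copies summed, and 3 to 8 with 1 library left out. Among the 26 tested members under 50% near-identical, a subset of the same fit, 5 were lower and 0 higher at that level; of the 21 subunit genes among them 5 were lower, or 23.8%, beside 11 of all 77 subunit genes, or 14.3%. The median of the members turned to 0.02 with the number series as a covariate and 0.03 within the 10xx numbers, with 46 members lower in each; leaving out 1 library gave −0.10 to −0.02. The median level per length was 50.2 CPM per kb with joined exons, against 106.

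Of the 42 named members, 9 changed sign somewhere, and none of them was called under any setting. Rpl3l was −0.25 with limma voom and −0.43 with the muscle covariate, Rps27l 0.037 and 0.039, and Rps4y2 0.49 and 0.49, with the number series as a covariate and within the 10xx numbers. With 1 library left out, Rpl29 ranged from −0.032 to 0.29, Rpl3l from −0.25 to 0.60, Rpl4 from −0.10 to 0.0066, Rpl5 from −0.18 to 0.035, Rpl7 from −0.027 to 0.084, Rpl8 from −0.11 to 0.0012, Rplp0 from −0.0047 to 0.10, Rps27l from −0.070 to 0.018 and Rps4y2 from −0.90 to 0.11. The cause of these changes was not tested. Scaling moved the median of all genes by less than 0.02. With 5 libraries a group, counts that may be shared between near-identical copies, and sex, tissue label and number series uneven between the groups, genotype cannot be told apart from these in any difference given here. No paired analysis was possible because the groups share no replicate numbers.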
